A study of Mus musculus with 6 samples.

Results

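Late-catalogued miRNAs were taken here as the miRNAs whose miRBase identifier is MIMAT0014800 or higher. They were selected on their read counts as well, since only those with at least 4 counts in at least 2 of the 6 libraries were kept. This rule gave 64 of the 354 listed identifiers in that range, out of 788 miRNAs listed in any library. The libraries were made from serum RNA of healthy male and female 129/SVj mice between 2 and 9 months old, using 3 commercial small RNA kits, NEBNext Multiplex (New England Biolabs), TruSeq v2 (Illumina) and TailorMix v2 (Seqmatic), with 2 libraries per kit. All mice were sedated with tribromoethanol before blood was drawn, and the labels give the kit as the only difference between groups. RNA was isolated from serum of individual mice, and the labels number the sera 1 and 2 within a kit. They do not say which mouse, sex or age stands behind a number or whether the kits shared sera, so differences between kits and between mice cannot be fully told apart. Whether a kit shows these rare miRNAs at all, and at which share of the reads, is the question that the comparison of kits addresses.

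MiRNAs are cut from a hairpin precursor, which can release a mature miRNA from either of its arms. One strand of the duplex is usually loaded into an Argonaute protein and guides it to target mRNAs, while the opposite strand is mostly degraded. miRBase numbers mature sequences as they are entered, so abundant and conserved miRNAs tend to have low numbers, whereas rare miRNAs and opposite arms found by deep sequencing tend to have high ones. Small RNA library kits join adaptors to both ends of the RNA with ligases, and these enzymes are known to prefer some RNA ends over others. The lists give identifiers without names or sequences, and 0 of the 64 identifiers could be matched to the miRNA names and sequences of the reference used here. Names, arms, seeds and target genes are therefore not given. The year of entry and the method of discovery were not checked either, so that the term late-catalogued rests on the identifier number alone. For the same reason serum was not checked against marker miRNAs, except for miR-16-5p (MIMAT0000527), a miRNA known to be abundant in blood, which had between 617 and 11322 counts in every library.

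The 2 TruSeq libraries were the deepest, at 351758 and 282076 miRNA reads. TailorMix gave 193468 and 196895 miRNA reads, and NEBNext 224864 and 165139. All levels below are shares of these miRNA reads, and an unlisted miRNA was taken as 0. A share can rise because other miRNAs fall. The floor for a count of 0 was 3 counts, a share of 0.000853% to 0.00182% depending on the library. The exact 95% upper limit of a 0 lies higher, for example 0.00105% in TruSeq replicate 1. A fold given as at least a value sets only the kit at 0 to a floor of 3 counts over both libraries. The counts of the other kit are taken as observed, so such a value is not a 95% limit. The floor and the 95% exact binomial intervals cover counting error only. No molecular identifiers are named for these libraries, and several reads can stem from 1 molecule.

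Together the 64 miRNAs held a small part of the miRNA reads, highest with NEBNext. The NEBNext libraries gave 7610 and 5491 reads on them, which is 3.38% and 3.33% of miRNA reads (mean 3.35% ± 0.0419, SD, n = 2). TruSeq gave 5695 and 4392 reads, or 1.62% and 1.56% (mean 1.59% ± 0.0438, SD, n = 2), although its libraries had the most miRNA reads. With TailorMix it was 4377 and 4450 reads, or 2.26% in both libraries (mean 2.26% ± 0.00163, SD, n = 2). The 3 kits did not overlap, and the gap between neighbouring kits exceeded 10 times the SD of either. No test was made of this sum because its members were chosen by their counts. The order depends on the denominator. As a share of all annotated reads, which include the other RNA classes, the late-catalogued reads were highest with TailorMix (0.0845%), then TruSeq (0.0478%), and lowest with NEBNext (0.0307%).

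A few identifiers carried most of these reads. In each library the 4 most abundant late-catalogued miRNAs took 74.4% to 82.2% of the late-catalogued reads, and the 10 most abundant took 91.9% to 93.8%. The median member had only 3 to 9 counts in a library, and the median total over all 6 libraries was 27.5 counts, against 144 for the 296 miRNAs with lower identifiers that pass the same count rule. The heat map of shares shows this steep decline. Without the 4 members of highest mean share, the remaining 60 held 0.900% and 0.867% of miRNA reads with NEBNext, 0.514% and 0.496% with TailorMix and 0.483% and 0.456% with TruSeq. NEBNext stayed highest and TailorMix stayed above TruSeq, by less than before.

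**Figure D1:**
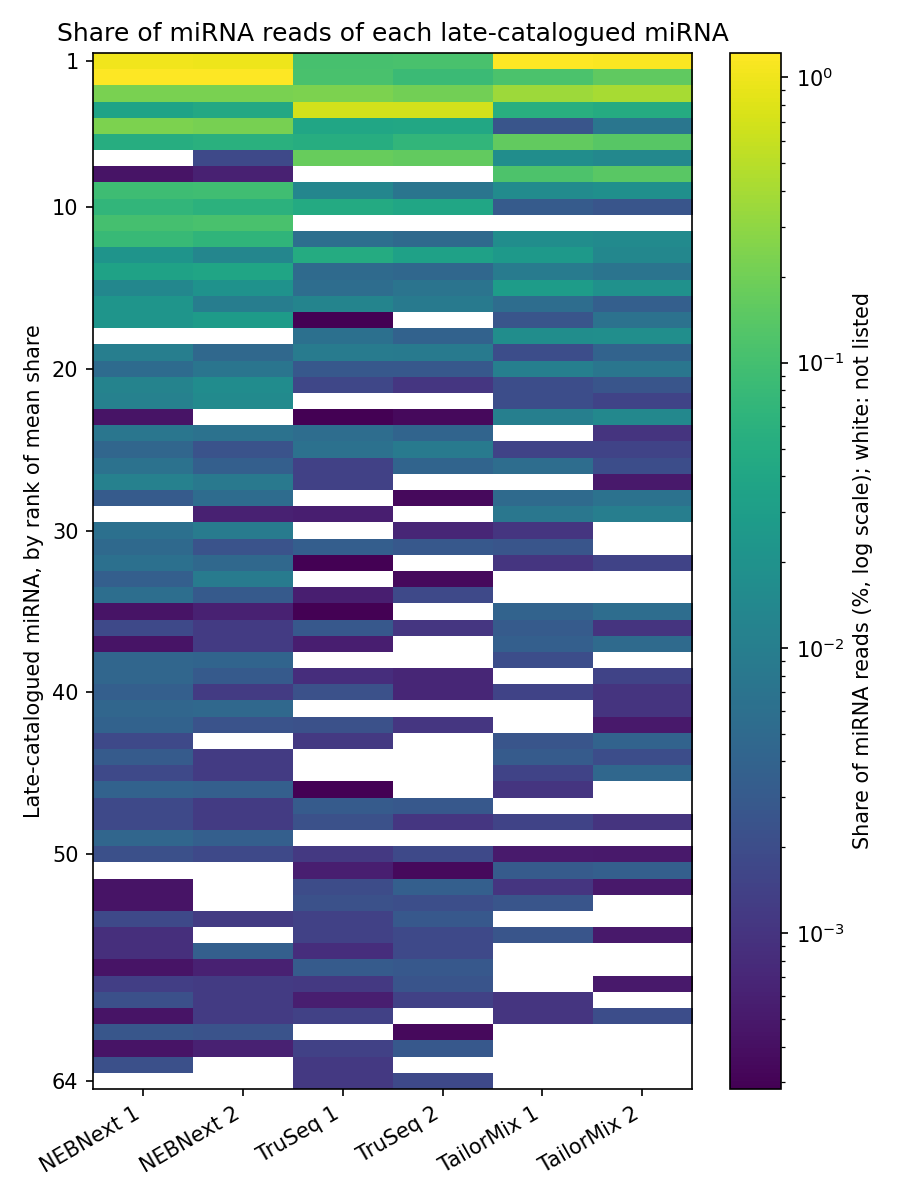
Share of miRNA reads (%, colour on a log scale) of the 64 late-catalogued miRNAs (rows, ordered by the mean of the 3 kit means) in the 6 libraries (columns), with white where a miRNA is not listed. The first 4 rows are listed in every library with at least 72 counts, and the first white cell is in row 7.

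The 4 members with the highest mean share were all counted in every library, yet each had another kit pattern. The first of them, MIMAT0014856, reached 2356 and 2266 counts with TailorMix and 2275 and 1623 with NEBNext, but only 378 and 316 with TruSeq. As a share of miRNA reads this was 1.18% ± 0.0473 for TailorMix, 0.997% ± 0.0204 for NEBNext and 0.110% ± 0.00323 for TruSeq (SD, n = 2 each). TruSeq was thus low in both libraries, and both TailorMix libraries lay above both NEBNext libraries by a much smaller step. edgeR's quasi-likelihood test was run over all 360 miRNAs that meet the count rule, whatever their identifier, with Benjamini-Hochberg adjustment. It put TruSeq below NEBNext by a log2 fold change of -2.12 (SE 0.11, adjusted p = 1.02e-17) and TailorMix above TruSeq by 3.02 (SE 0.12, adjusted p = 7.49e-22).

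MIMAT0029894 was the late-catalogued miRNA with the highest share in both NEBNext libraries. NEBNext read it 2718 and 1989 times, TailorMix 223 and 309 times and TruSeq 394 and 240 times. The corresponding shares were 1.21% ± 0.00303, 0.136% ± 0.0295 and 0.0985% ± 0.0190 (SD, n = 2 each). Only NEBNext stood apart here, as TruSeq fell short of it by a log2 fold change of -2.53 (SE 0.15, adjusted p = 4.32e-17) and TailorMix by -2.49 (SE 0.15, adjusted p = 1.06e-16). Between TruSeq and TailorMix the fitted log2 difference was 0.04 with an SE of 0.15 (adjusted p = 0.835). By pooled share TailorMix was 1.36 times TruSeq (95% exact interval for counting error 1.21 to 1.53), and with total miRNA reads in place of TMM as the scale this difference passed the test, at a log2 fold change of 0.46 (adjusted p = 4.26e-04).

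MIMAT0014944 was the reverse, with the highest share in TruSeq. TruSeq gave 2395 and 1970 counts, TailorMix 109 and 96, and NEBNext 82 and 72. This single identifier made up 42.1% and 44.9% of the late-catalogued reads of the TruSeq libraries. The share of 0.690% ± 0.0124 with TruSeq compared with 0.0400% ± 0.00504 with NEBNext and 0.0525% ± 0.00536 with TailorMix (SD, n = 2 each). TruSeq exceeded NEBNext by a log2 fold change of 5.18 (SE 0.15, adjusted p = 1.92e-25), and TailorMix was lower than TruSeq by -4.13 (SE 0.14, adjusted p = 2.42e-23).

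MIMAT0014943, whose identifier comes directly before it, was the most even of these 4 members. TailorMix gave 695 and 803 counts, TruSeq 829 and 580, and NEBNext 512 and 376. The shares were 0.359% and 0.408% with TailorMix, 0.236% and 0.206% with TruSeq, and 0.228% in both NEBNext libraries. NEBNext lay between both TruSeq libraries, and TailorMix lay above all 4 others. On TMM-scaled counts TruSeq exceeded NEBNext by a log2 fold change of 1.03 (SE 0.13, adjusted p = 1.74e-08), but with total miRNA reads as the scale the value was -0.043 (adjusted p = 0.764). For this miRNA the call between TruSeq and NEBNext rests on the scaling.

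The scaling mattered for every comparison of kits. TMM estimates the scale of each library from the miRNAs as a whole, taking most of them as unchanged. On this scale 68.6% to 77.5% of all 360 miRNAs passed the test in each comparison, so the calls do not bear that premise out. Relative to total miRNA reads it shifted the median log2 fold change of all 360 miRNAs by 0.95 between TruSeq and NEBNext, by 0.65 between TailorMix and NEBNext and by -0.41 between TailorMix and TruSeq. Calls near these sizes depend on it, while the shares and counts given here do not.

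Of the 64 members, 20 were seen with 1 kit only, meaning at least 4 counts in both libraries of that kit and fewer than 4 in each of the other 4 libraries. They comprised 9 for NEBNext, 5 for TruSeq and 6 for TailorMix, against 33, 8 and 32 among all miRNAs tested. Over all 360 miRNAs that pass the count rule the share was 20.3%, and among the 296 earlier identifiers it was 17.9% (53 miRNAs), against 31.3% of the late-catalogued ones. The count rule that chose the members also enters this definition, so the figures are descriptive and no test was made. At the other end, 16 members (25.0%) reached the minimum in all 6 libraries, against 43.9% of the earlier identifiers. A further 4 reached it in at least 1 library of each kit and 24 with 2 kits. The kit under the minimum was TailorMix for 13 of these 24, TruSeq for 6 and NEBNext for 5. Over all 360 miRNAs, 111 reached it with 2 kits, with TailorMix under it for 41, TruSeq for 49 and NEBNext for 21. Under the minimum does not mean absent, as some had 1 to 3 counts in a library.

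Most of the 20 were rare. In the kit that showed them, 18 of 20 had fewer than 50 counts over its 2 libraries, the lowest 9 and the median 17.5. By total counts over the 6 libraries, 7 of the 20 had 8 to 19 and 10 had 20 to 49. Of the 53 earlier identifiers seen with 1 kit only, 25 and 19 lay in these classes. The definition favours rare miRNAs, and rarity is not particular to the members. Only 3 of the 20 had 0 counts in all 4 libraries of the other kits, 2 of them with NEBNext and 1 with TruSeq. The other 17 had between 1 and 8 counts there. The definition with a minimum of 1 count and 0 elsewhere therefore gave 3 miRNAs, and a minimum of 10 counts gave 9, not all of them among the 20 (5 NEBNext, 0 TruSeq and 4 TailorMix). When the minimum was scaled with the miRNA reads of each library, at 4 counts in the smallest, the total was 23 but the split became 14 for NEBNext, 2 for TruSeq and 7 for TailorMix. The number for TruSeq also went from 5 to 8 without NEBNext replicate 1. Counts over all 360 miRNAs are not given for these other definitions, so they have no background and are not read as a trait of the members.

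**Figure D2:**
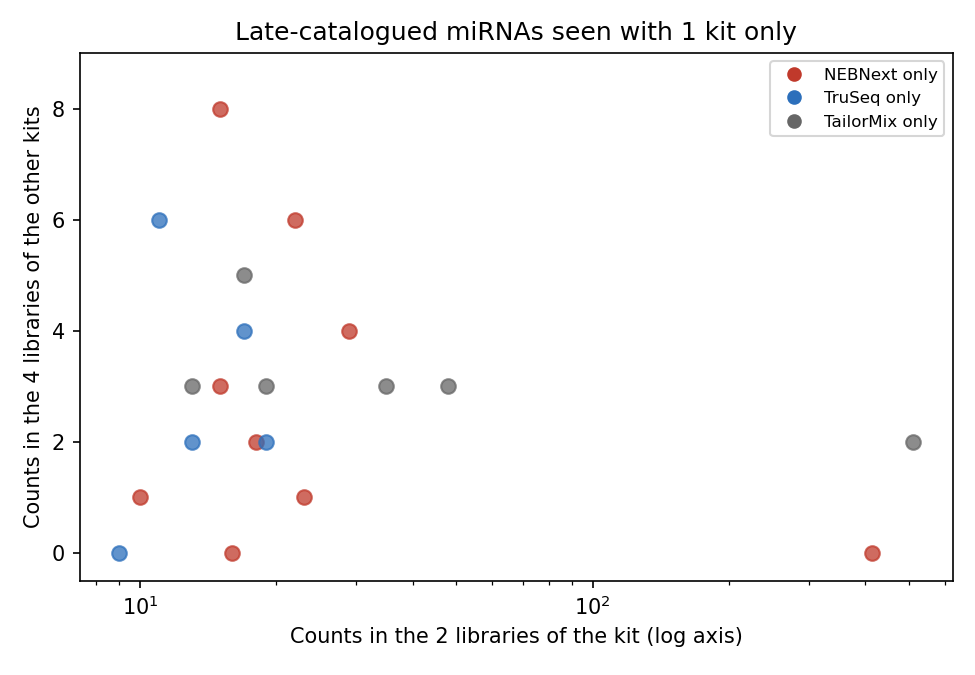
Counts of the 20 late-catalogued miRNAs seen with 1 kit only, in the 2 libraries of that kit (x axis, log scale) against the 4 libraries of the other kits together (y axis). Each point is a miRNA, coloured by kit, and only 2 points have 50 or more counts, at 415 and 510, with 0 and 2 counts in the other kits.

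The exceptions were 1 identifier for NEBNext and 1 for TailorMix. MIMAT0025138 had 233 and 182 counts with NEBNext and 0 in all 4 libraries of TruSeq and TailorMix. It took 0.104% and 0.110% of the miRNA reads of the NEBNext libraries. The floor was 3 counts over both libraries of the other kit, and the NEBNext counts were taken as observed. On this basis its share was at least 225-fold higher with NEBNext than with TruSeq. Against TailorMix it was at least 138-fold higher. MIMAT0022841 had 229 and 281 counts with TailorMix, 1 and 1 with NEBNext and 0 and 0 with TruSeq. Its share of 0.131% ± 0.0172 with TailorMix (SD, n = 2) was at least 276-fold higher than with TruSeq, and 255 times that with NEBNext (95% exact interval for counting error 70.2 to 2109). Both identifiers passed the count rule only through the kit where they were high. That fixed the direction of these differences, so no test result is given for them.

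At a like total count, the late-catalogued miRNAs were not uniformly more often limited to 1 kit. Among miRNAs with 8 to 19 counts over the 6 libraries, 7 of 16 late-catalogued ones (43.8%) were seen with 1 kit only, against 25 of 33 earlier ones (75.8%). With 20 to 49 counts it was 10 of 22 (45.5%) against 19 of 57 (33.3%), from 50 to below 200 counts 1 of 12 against 6 of 75, and with 200 or more counts 2 of 14 (14.3%) against 3 of 131 (2.29%). The direction changed between these classes, and 38 of the 64 members lay in the lower 2 of them.

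**Figure D3:**
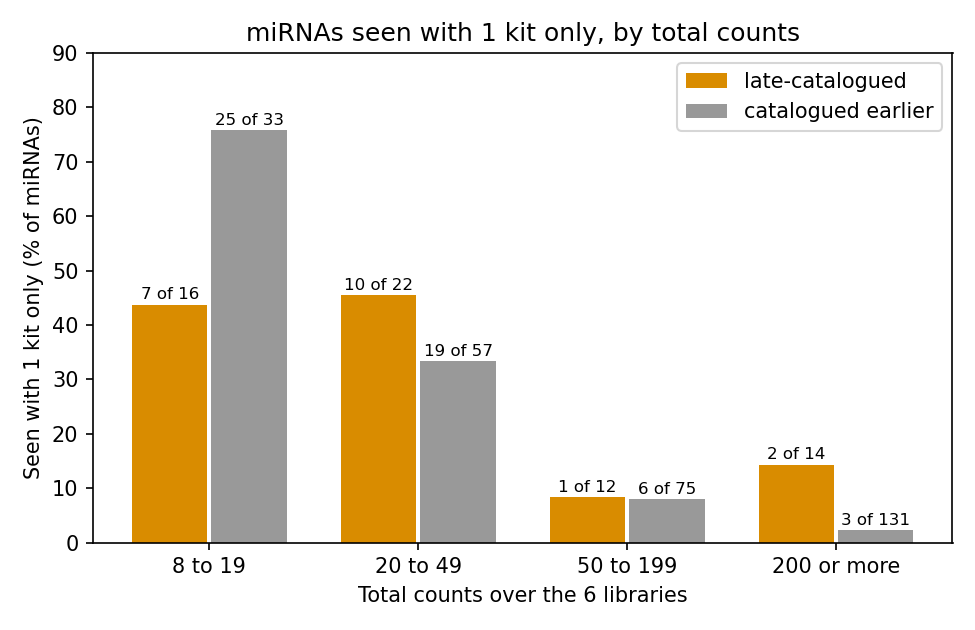
Share of miRNAs seen with 1 kit only (%, y axis, from 0) by total counts over the 6 libraries (x axis), for late-catalogued miRNAs and for those catalogued earlier that pass the same count rule, with the numbers above each bar. Both sets fall from over 30% below 50 counts to under 15% above it, and which set is higher changes between the classes.

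Across kits, the number of members found in a library did not follow its miRNA reads. Within NEBNext and within TruSeq the library with more miRNA reads also had more members, but not within TailorMix. At least 4 counts were reached by 47 and 37 of the 64 members with NEBNext (mean 42.0 ± 7.07), by 40 and 34 with TruSeq (37.0 ± 4.24) and by 35 and 31 with TailorMix (33.0 ± 2.83, SD, n = 2 each). The ranges of NEBNext and TruSeq overlapped, as did those of TruSeq and TailorMix. The earlier identifiers had another order, with 78.4% to 82.8% of 296 reached with NEBNext, 63.2% to 66.6% with TruSeq and 78.0% to 78.7% with TailorMix. Of the late-catalogued miRNAs, NEBNext reached 57.8% to 73.4%, TruSeq 53.1% to 62.5% and TailorMix 48.4% to 54.7%. Every kit thus reached a smaller part of these than of the earlier ones, with the widest gap for TailorMix. The sets are not matched for counts, with median totals of 27.5 and 144.

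By mean share, NEBNext was the leading kit for 31 of the 64 members, TailorMix for 18 and TruSeq for 15. Both libraries of the leading kit lay above all 4 others for 45 of them, while this held for 85.8% of all 360 miRNAs. Of the 296 earlier identifiers, 46.6% led with NEBNext, 38.2% with TailorMix and 15.2% with TruSeq. The 4 members with identifiers between MIMAT0027000 and MIMAT0027999 all had their highest mean share with NEBNext, but for 2 of them the libraries of the kits overlapped at 5 counts or fewer, and none of the 4 reached the minimum in all 6 libraries. Of 86 listed identifiers in this range, 4 passed the count rule, against 64 of 354 over all late-catalogued identifiers. In the range from MIMAT0016900 to MIMAT0017399 it was 23 of 79. Over all ranges looked at, the part that passed ran from 4.65% to 53.8%. Among the 6 pairs of members with directly consecutive identifiers, the leading kit differed in 4.

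One such pair was MIMAT0014836 and MIMAT0014837. NEBNext gave 0 counts of the first in both libraries, TailorMix 33 and 35, and TruSeq 22 and 11. TruSeq gave 0 counts of the second in both libraries, TailorMix 4 and 3, and NEBNext 25 and 26. MIMAT0014836 was at least 6.77-fold higher with TruSeq and at least 22.6-fold higher with TailorMix than with NEBNext. By contrast, MIMAT0014837 was at least 27.6-fold higher with NEBNext than with TruSeq. These values use a floor of 3 counts over both libraries and take the counts of the higher kit as observed. The 2 differences of MIMAT0014836 passed the test (adjusted p = 6.05e-07 and 2.03e-10, in that order). MIMAT0014837 would not have passed the count rule without NEBNext, so the rule bears on its direction and no test is given for it. Whether the identifiers of a pair share a hairpin was not tested.

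For the 16 members with at least 4 counts in all 6 libraries, the kits differed more than the replicates. These members had total counts from 53 to 9214. The median absolute log2 difference between 2 libraries of a kit was 0.41 for TailorMix, 0.24 for TruSeq and 0.20 for NEBNext. Between kit means it was 1.33 for TruSeq and NEBNext, 1.37 for TailorMix and NEBNext and 1.44 for TailorMix and TruSeq. The highest and the lowest of 6 libraries differed by a median of 7.25-fold. The 130 earlier miRNAs found in all libraries had larger differences between kits, with medians from 1.72 to 1.84 on the same log2 scale of shares. They were also more abundant, so the sets are not matched for counts.

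From NEBNext to TruSeq, 38 of 64 members passed the test at an adjusted p under 0.05, 16 higher and 22 lower in TruSeq. This was 59.4% of the members, below the background of 68.6% of all 360 miRNAs (26.1% higher and 42.5% lower). The median log2 fold change was 0.13 over the members and -0.52 over all miRNAs tested. With shares of miRNA reads, and members at 0 in a kit set to the floor of 3 counts, the medians were -0.93 over 58 members and -1.55 over 333 miRNAs. With total miRNA reads as the scale, 34 members passed, 8 higher and 26 lower, so that the split moved toward NEBNext. The median over all miRNAs moved the same way, to -1.48, so the shift is not particular to the members. DESeq2 called 19. Here and in the comparisons below, calls over all miRNAs are not given for total miRNA reads or DESeq2, so these counts have no background.

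Members were picked for description by fitted log2 fold change among those with the same sign in all 4 pairs of libraries. For a member at 0 in a kit that fit depends on the prior count, so the picks are not an order of size, and other members had larger measured ratios than some of the bounds given. In TruSeq over NEBNext the picks on the higher side were MIMAT0019348 and MIMAT0014836, the latter given above. MIMAT0019348 had 619 and 459 counts in TruSeq, against 33 and 28 in TailorMix and 0 and 3 in NEBNext. Its 3 counts over both NEBNext libraries put the ratio of shares at 221 (95% exact interval for counting error 75.5 to 1074), with a fitted log2 fold change of 8.71 (SE 0.33, adjusted p = 4.81e-22). TailorMix was below TruSeq by a log2 fold change of -3.85 (SE 0.21, adjusted p = 1.19e-17). Of the 7 members of highest mean share it was the only one under 4 counts in both libraries of a kit. On the lower side they were MIMAT0025138 and MIMAT0014837, both at 0 in the TruSeq libraries.

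From NEBNext to TailorMix, 41 of 64 members passed the test, 17 higher and 24 lower in TailorMix. The background was 77.5% of all miRNAs (39.2% higher and 38.3% lower) against 64.1% of the members. Here the members' median log2 fold change was -1.14, below the median of -0.24 over all miRNAs. On the scale of shares the medians were -1.30 over 60 members and -0.86 over 354 miRNAs. With total miRNA reads as the scale 41 members passed, 12 higher and 29 lower, and DESeq2 called 23. MIMAT0022841 and MIMAT0014836, picked on the higher side, and MIMAT0025138, picked on the lower side, are described above. Also on the lower side was MIMAT0031399, which had 8 and 15 counts in NEBNext, 1 count in TruSeq replicate 2 and 0 in the other 3 libraries. With the NEBNext counts as observed, its share was at least 7.67-fold higher with NEBNext than with TailorMix. The count rule fixed this direction, since MIMAT0031399 passed it through NEBNext alone.

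From TruSeq to TailorMix, 37 of 64 members passed the test, 18 higher and 19 lower in TailorMix. Of all miRNAs, 70.6% passed (41.7% higher and 28.9% lower), against 57.8% of the members. The members' median log2 fold change of -0.21 lay below the 0.50 of all miRNAs, and on the scale of shares it was -0.0012 over 57 members and 1.01 over 336 miRNAs. With total miRNA reads as the scale 38 members passed, 22 higher and 16 lower, so that the balance turned toward TailorMix. The median over all miRNAs also rose on that scale, to 0.91. DESeq2 called 26. MIMAT0022841 was again picked on the higher side, with MIMAT0016984, which had 0 and 0 counts in TruSeq, 3 and 9 in TailorMix and 4 and 2 in NEBNext. With the TailorMix counts as observed, the share of MIMAT0016984 was at least 6.49-fold higher with TailorMix than with TruSeq. Without TailorMix this identifier would not have passed the count rule, which bears on the direction. MIMAT0025167 and MIMAT0014938 were picked on the lower side, each with 11 and 8 counts in TruSeq and 0 in TailorMix, and were at least 3.90-fold higher with TruSeq. The count rule bears on both directions, since MIMAT0025167 passed it through TruSeq alone and MIMAT0014938 would not have passed it without TruSeq. NEBNext gave 1 and 1 counts for MIMAT0025167 and 4 and 2 for MIMAT0014938. These bounds rest on few counts in the higher kit, and they leave out the counting error of those counts.

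**Figure D4:**
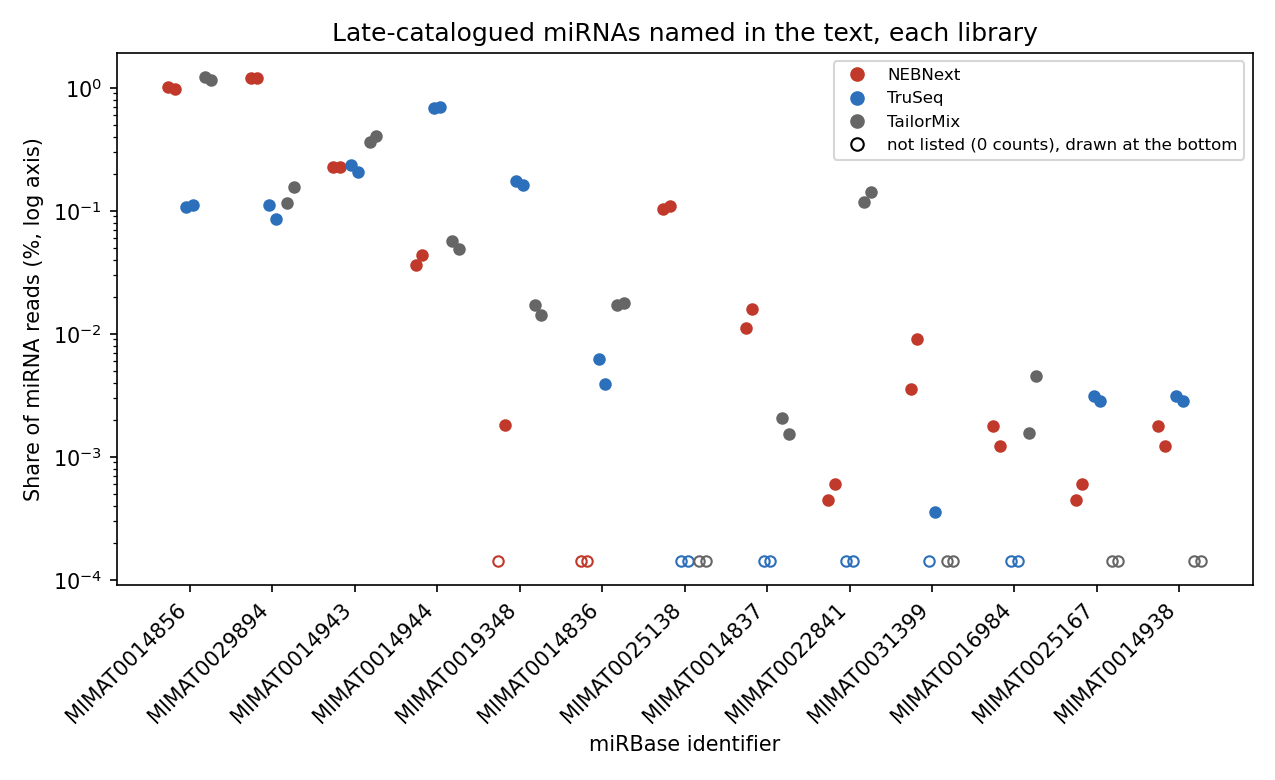
Share of miRNA reads (%, log axis) in each of the 6 libraries for the 13 late-catalogued miRNAs named in the text, ordered with the 4 of highest mean share first. Filled points are single libraries coloured by kit, and open points at the bottom are libraries with 0 counts. MIMAT0025138 has points above the bottom with NEBNext only, and MIMAT0014943 lies between 0.206% and 0.408% in all libraries.

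Taking the 3 comparisons side by side, 14 members passed the test in all of them, 34 in 2, 6 in 1 and 10 in none. The same tally was not made over all 360 miRNAs, of which 68.6% to 77.5% passed in each comparison. These numbers are therefore not read as a trait of the members. The comparisons share their libraries in pairs and are not independent of each other. Leaving out the 20 members seen with 1 kit only, the test was passed by 26, 28 and 26 of the other 44, in the order in which the comparisons are given above. The same exclusion was not made over all miRNAs, so these counts have no background. Some of the 44, such as MIMAT0014837, still needed their highest kit to pass the count rule. The standard errors of the members were larger than those of all miRNAs, with medians of 0.78, 0.83 and 0.85 against 0.48, 0.47 and 0.57. Fewer counts per member go with larger errors, so a lower share of members past the threshold does not show that they differ less between kits.

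**Figure D5:**
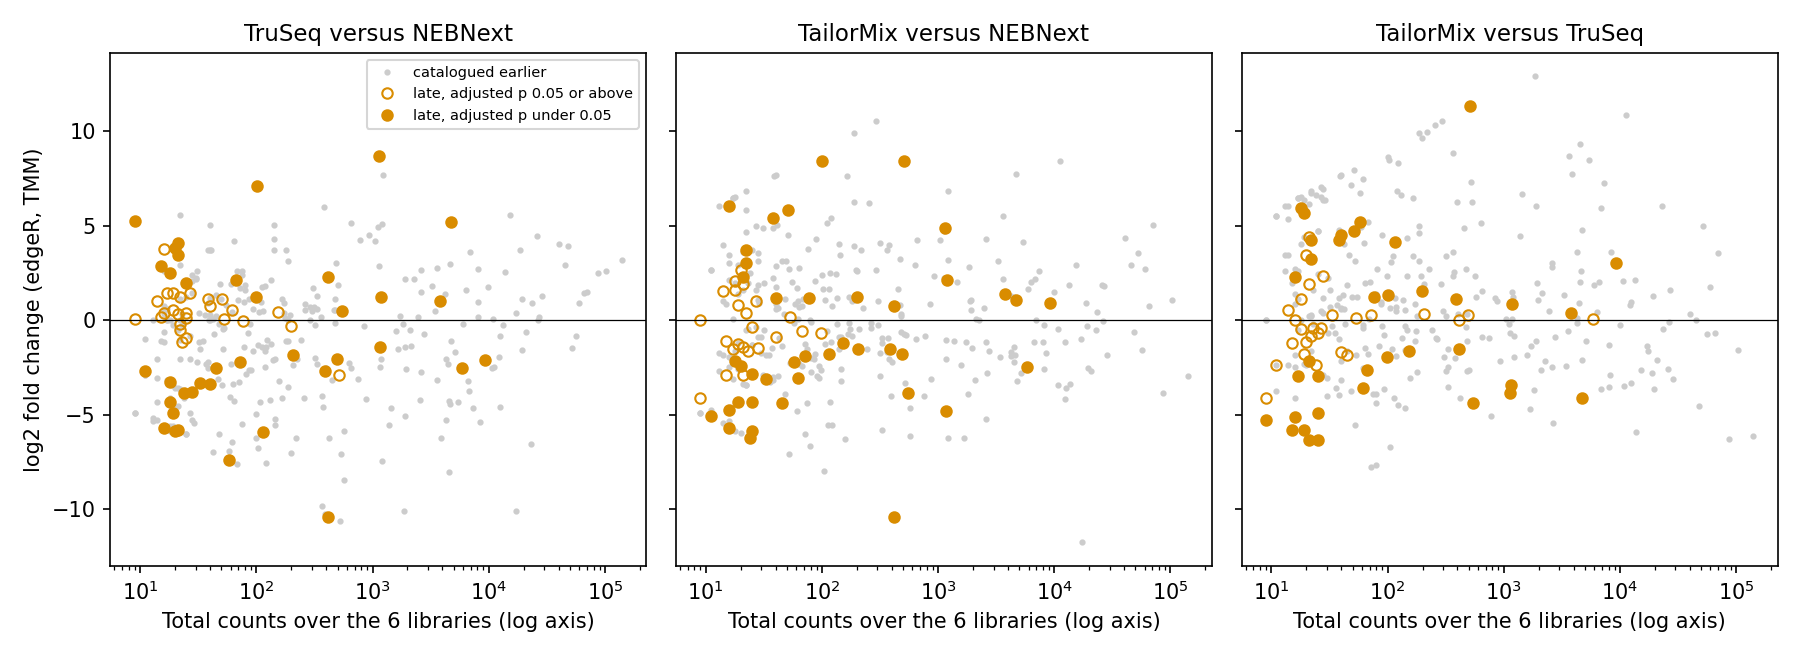
Fitted log2 fold change between kits (edgeR, TMM, y axis) against total counts over the 6 libraries (x axis, log scale) for 360 miRNAs in 3 comparisons, with late-catalogued miRNAs in orange (filled where the adjusted p is under 0.05) and earlier ones in grey. Open orange points lie mostly below 50 total counts, and in each comparison 37 to 41 of the 64 orange points are filled. Fits of miRNAs at 0 in a kit depend on the prior count of the tool.

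At the edge of the count rule the choice of members rests on a handful of reads. The 2 members with the fewest counts had 9 each, one with 4 and 5 counts in the TruSeq libraries and 0 elsewhere, the other with 5 in NEBNext replicate 1 and 4 in TruSeq replicate 1. The 2 identifiers with the most counts that did not pass had 22 and 21. Of the first, 21 counts lay in NEBNext replicate 1 and 1 in TruSeq replicate 1, and the second had 12 counts in TailorMix replicate 1 and at most 3 in any other library. Of the 290 identifiers in the range that did not pass, 254 reached 4 counts in no library, 36 in 1 library, and 123 had a single count in all.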

How the data were processed

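Small RNA was sequenced from 6 mouse serum libraries, 2 for each of 3 kits, grouped by the kit and number in the labels. The deposited values are raw read counts per miRBase identifier, without normalization. To make them, the authors trimmed adaptors (Cutadapt 1.8.1), filtered short and low-quality reads, mapped without mismatches (Bowtie 1.1.2) and assigned reads by their position on GRCm38. How reads with several positions were counted is not given in the sources used here, so reads of near-identical miRNAs may be split.

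Members were found by identifier and counts. The members and the lists were chosen with earlier results of these data known. Shares were computed with Python 3.11.15 and pandas 2.3.3. The 360 miRNAs that meet the count rule were fitted in edgeR 4.0.16 (R 4.3.3) with TMM, glmQLFit and glmQLFTest on all 6 libraries, without a block, with Benjamini-Hochberg adjustment over all 360 and a threshold of 0.05. Standard errors were taken as the absolute log2 fold change over the square root of F. DESeq2 1.42.0 and other filters, scales and library sets were alternatives. The fit was tested on simulated counts. Intervals are exact binomial (scipy 1.17.1).

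Named were the 4 members of highest mean share and, per comparison, the 2 largest significant fitted log2 fold changes in each direction that had the same sign in all 4 pairs of libraries. The rule as first written also named the next members by mean share and 4 members per kit and per comparison. It was shortened after the values were seen, because no identifier could be given a name. Analyses by arm, sequence and shared sequence were not run for the same reason.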

Additional observations from a re-analysis of the deposited data

How the results depend on the processing

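Between TruSeq and NEBNext, the 38 members past the threshold became 19 with DESeq2 and 18 with a mean of at least 10 counts, where 23 members were tested. Between TailorMix and NEBNext, 41 became 23 and 21, and between TailorMix and TruSeq 37 became 18 under the stricter filter, which tests fewer members by construction. Between TailorMix and TruSeq DESeq2 called 26. The cause of the DESeq2 difference was not tested. Calls over all miRNAs are not given for these alternatives, so the totals have no background. The labels give the kits the same numbers. The difference between libraries 1 and 2 across 221 miRNAs had a correlation of -0.11, -0.036 and 0.050 between kits, and the main fit did not pair the libraries. Such low values cannot show whether the kits shared sera, since counting error can hide a shared difference. With the replicate number as a block 34, 33 and 30 members passed, in the same order. All other planned fits, including those without 1 library, left these totals within 1.5 times. By direction, the 16 members higher in TruSeq than in NEBNext were 10 without NEBNext replicate 2, with 19 lower, and 8 with total miRNA reads as the scale.

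Seen with 1 kit only were 20 members, against 3 with a minimum of 1 or of 4 counts and 0 elsewhere, and 9, not all of them among the 20, with a minimum of 10. Without 1 library it was 20 to 24. These alternatives are given for the members only and have no background. As a share of all annotated reads, the late-catalogued reads came to 0.0845% for TailorMix, 0.0478% for TruSeq and 0.0307% for NEBNext, so that NEBNext was lowest and not highest. Without the count minimum, the shares of miRNA reads were 3.46% with NEBNext and 2.32% with TailorMix, and that of TruSeq moved by less than its SD. Of 491 refits of the 13 named miRNAs, 455 kept direction and side of the threshold, 32 lost the call and 3 gained it. MIMAT0014943 between TruSeq and NEBNext turned to -0.043 with total miRNA reads as the scale. Most members have under 50 counts, which limits every statement on them.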
